A study of Mus musculus with 9 samples.

Results

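The genes described here are 10 readouts of BMP and Nodal signalling in mouse embryonic stem cells: the ligands Bmp4, Nodal and Gdf3, the co-receptor Tdgf1, the inhibitors Lefty1, Lefty2 and Smad7, and the target genes Id1, Id2 and Id3. They were taken by symbol from a table of 23366 genes, and all 10 had a row there. The table counts sequencing reads of total RNA in 3 wild-type (WT) libraries and 3 libraries of cells without Sirt6, the gene of a histone deacetylase that the series title links to pausing of RNA polymerase II near promoters. Both groups were of the strain 129 SvJae F1 at passage 21, kept in DMEM with fetal bovine serum, LIF, glutamine, antibiotics and beta-mercaptoethanol. The treatment label is Wild-type for the first group and SIRT6-Knock Out for the second. The labels do not say how the knockout was made, whether it is a single clone, or whether replicates were separate cultures, so the p-values below rest on differences among libraries that could be technical repeats. Another group of 3 glucose-deprived wild-type samples was not analysed here.

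BMP and Nodal are secreted ligands of the TGF-beta superfamily that bind pairs of serine/threonine kinase receptors. BMP receptors phosphorylate SMAD1, SMAD5 and SMAD9, Nodal and activin receptors phosphorylate SMAD2 and SMAD3, and both kinds of SMAD enter the nucleus with SMAD4. In mouse embryonic stem cells grown with serum and LIF, BMP signals and their Id targets are known for holding back neural differentiation, and Nodal signals are known for feedback through their own inhibitors, the Lefty proteins. These statements are background and not results of the files.

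Total counts ran from 20107037 to 29267115 per library. Sirt6 fell from 13.5 ± 0.690 to 0.308 ± 0.0664 CPM (read counts scaled to library size with the trimmed mean of M values, TMM; SD, n = 3), in the direction of the labels. All 8 fixed markers of pluripotent stem cells were expressed, with a summed level of 5307 to 5791 CPM in wild type and 4987 to 6425 CPM in the knockout; 2 were higher and 4 lower. The groups also differed at sex chromosome genes, named after their values were seen: Xist was at 38.2 ± 6.23 CPM in wild type and 4.06 ± 0.662 in the knockout, and the Y-linked gene Ddx3y at 7.74 ± 0.791 and 91.5 ± 9.55 CPM. The part of this difference in the results below was not tested.

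Compared with wild type, the knockout had lower Bmp4, Id1, Id2, Gdf3, Lefty2 and Smad7, and higher Tdgf1 and Nodal. Bmp4 fell most, 5.17-fold, followed by Id1 at 3.24-fold and Id2 at 2.78-fold. Id3 and Lefty1 did not pass the test, although each has a close relative in the set that fell. All 10 genes had enough counts to be tested, from 195 to 42897 per library. With edgeR's quasi-likelihood model and a threshold of 0.05 on the adjusted p, 2 rose and 6 fell, or 80% called, where 55.7% of all 14988 genes tested were called (27.9% higher and 27.8% lower). The even split of all genes, 4182 higher and 4163 lower, became 5114 and 3101 with total counts as scaling, where the 10 genes gave the same 2 and 6. A log2 fold change of at least 1 as well was reached by 4 of the 10, all lower, against 21.6% of all tested genes. The libraries of the 2 groups did not overlap for 8 of the 10, against 63.2% of all tested genes. The median log2 fold change was -0.72 for these genes and 0.01 for all genes tested. The 10 genes were chosen with earlier results of these data known, and all genes tested include many with lower counts. These comparisons are thus a description and not a test. In whole cultures, fewer cells of a type and less RNA per cell cannot be told apart.

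**Figure D1:**
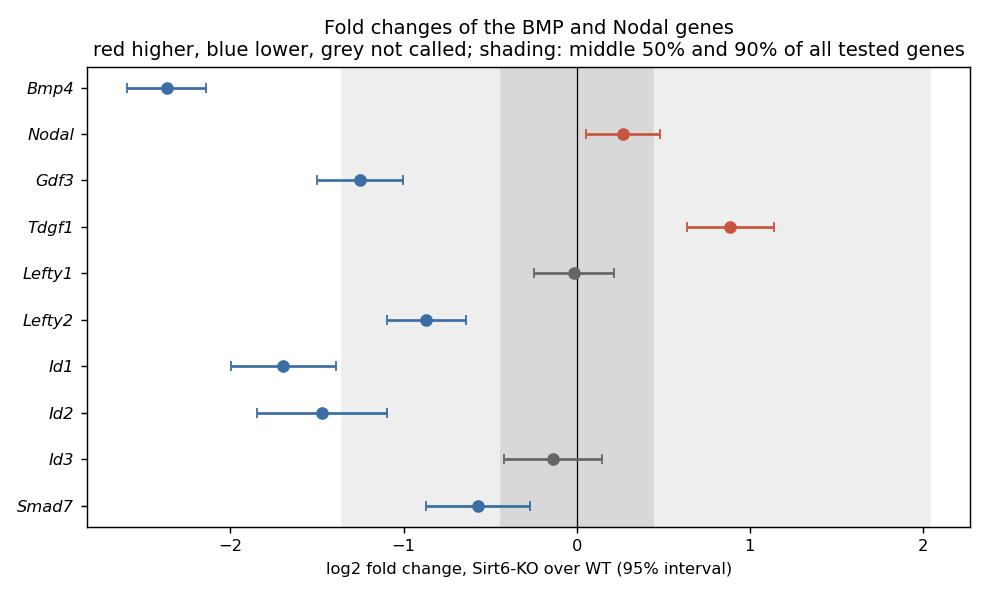
Log2 fold change of each BMP and Nodal gene in the knockout over wild type (x axis) with its 95% interval, 3 libraries per group; shading marks the middle 50% and 90% of all 14988 tested genes. Bmp4 at -2.37, Id1 at -1.69 and Id2 at -1.47 lie below the 5th percentile of all genes, -1.36, and the intervals of Id3 and Lefty1 cross 0.

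Among the ligands, Bmp4 and Gdf3 were lower and Nodal slightly higher. Bmp4, the BMP ligand of the inner cell mass and early epiblast, was measured at 74.0, 70.4 and 69.4 CPM in wild-type replicates 1 to 3 and at 14.1, 14.7 and 12.4 CPM in knockout replicates 1 to 3. The groups were far apart, and the spread within each group was small beside the gap. The log2 fold change was -2.37 ± 0.10 (SE), with an adjusted p of 8.72e-08 (edgeR), and 1.03% of tested genes had a change as low or lower. Gdf3, a ligand that works with Nodal and can inhibit BMPs, stood at 110, 111 and 119 CPM in wild type. Its knockout values were 42.2, 46.0 and 54.8 CPM. No knockout library came near wild type, and the log2 fold change was -1.25 ± 0.11 with an adjusted p of 5.86e-06.

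Nodal, which maintains the epiblast and patterns the embryo, was at 42.7, 48.5 and 48.1 CPM in wild type. The knockout libraries were at 56.4, 53.1 and 58.6 CPM. The lowest knockout library was above the highest wild-type library, by less than the range within wild type. The change was 0.27 ± 0.10 (log2 ± SE, 1.21-fold) with an adjusted p of 0.0339, and 66.0% of tested genes had a larger change in either direction. This call was lost without wild-type replicate 1, 2 or 3 (adjusted p = 0.159, 0.0847 and 0.0759), without knockout replicate 3 (0.0627) and with no filter on low counts (0.0522), over a range of 0.00710 to 0.159 in 15 alternatives.

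Tdgf1 encodes Cripto, the cell-surface co-receptor that Nodal and GDF3 need for signalling. It was by far the most abundant of the 10 genes, at 755, 780 and 846 CPM in wild type. In the knockout it reached 1351, 1503 and 1549 CPM. All knockout libraries were well above all wild-type libraries, and the log2 fold change was 0.89 ± 0.11 (1.85-fold, adjusted p = 7.11e-05). Per kilobase of exon its level ranked 121 in wild type and 73 in the knockout among 14830 tested genes with a known length. The direction of Tdgf1 was thus opposite to that of Gdf3 and Lefty2 in the same libraries.

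**Figure D2:**
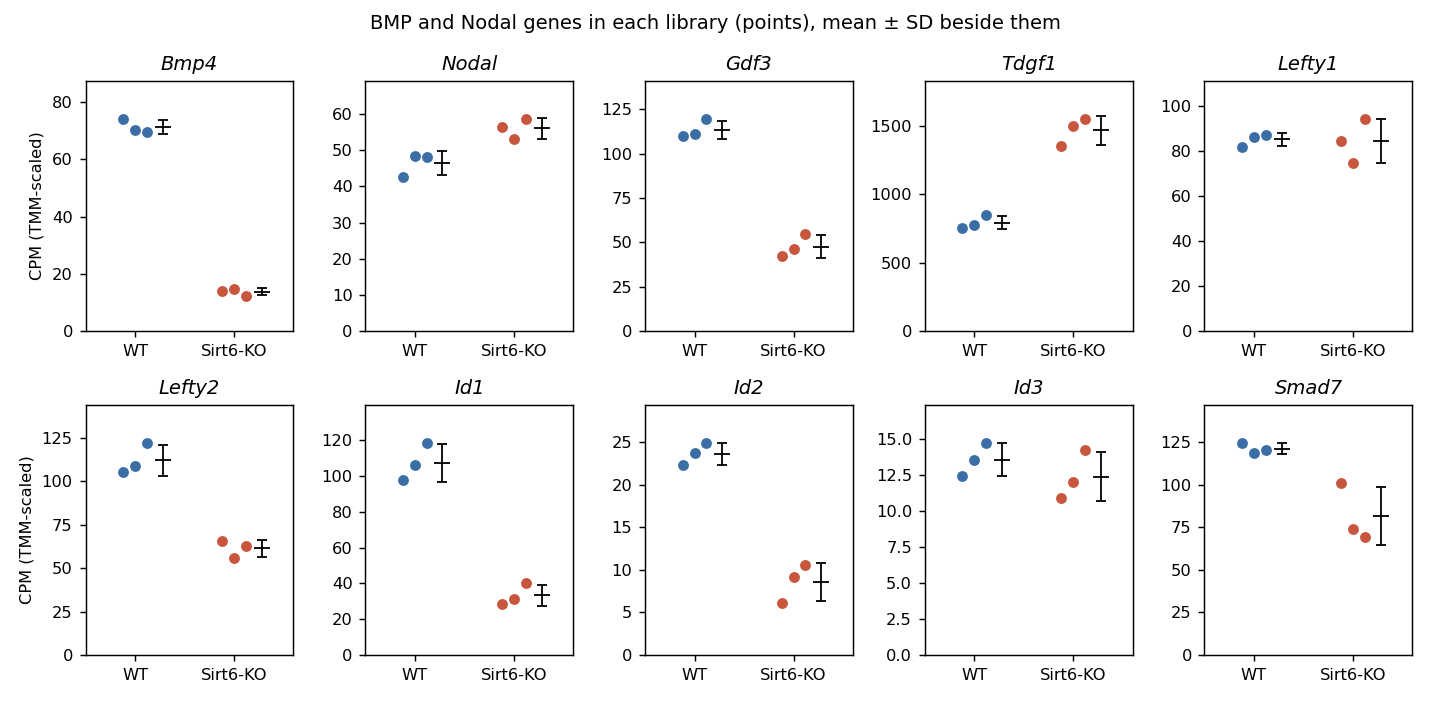
TMM-scaled CPM (y axis, from 0) of the 10 genes in each of the 3 wild-type (blue) and 3 knockout (red) libraries, with mean ± SD beside the points. The groups are separate for 8 genes; they overlap for Lefty1 (74.8 to 94.2 CPM over the 6 libraries) and Id3 (10.9 to 14.7 CPM).

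The Lefty genes, which encode secreted antagonists of Nodal and are themselves induced by Nodal signals, differed from each other. Lefty1 was at 81.9, 86.5 and 87.4 CPM in wild type and at 84.6, 74.8 and 94.2 CPM in the knockout. The knockout libraries spanned the wild-type range on both sides. The log2 fold change was -0.01, with a 95% interval of -0.24 to 0.22 and an adjusted p of 0.927. Its sign was positive with total counts as scaling (0.11) and in the other settings given in the closing section. Lefty2 was at 105, 109 and 122 CPM in wild type and at 65.6, 55.9 and 62.7 CPM in the knockout. Here the groups did not overlap, and the change was -0.87 ± 0.10 (1.83-fold lower, adjusted p = 4.20e-05).

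The coding sequences of this pair are 1104 bases each and match at 91.8% of positions (GENCODE M21), so that some reads fit both genes. Of all 50-base windows of the longest coding transcripts, 17.9% of those of Lefty1 occur exactly in Lefty2, and 11.6% of those of Lefty2 in Lefty1. Neither the read length nor the treatment of such reads is stated in the labels, and the values of both genes are uncertain to that extent. The stretch of 120 coding bases with the most differences among evenly spaced windows, bases 46 to 165 of each coding sequence, are shown because reads from there can tell the genes apart; capitals mark the 34 differing bases.
Lefty1: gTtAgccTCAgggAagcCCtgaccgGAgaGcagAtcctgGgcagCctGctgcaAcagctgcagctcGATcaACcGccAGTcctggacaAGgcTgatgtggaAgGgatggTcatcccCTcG
Lefty2: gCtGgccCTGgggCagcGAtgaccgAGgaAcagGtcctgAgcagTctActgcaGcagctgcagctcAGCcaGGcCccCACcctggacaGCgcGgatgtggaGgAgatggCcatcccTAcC

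Smad7 encodes an inhibitory SMAD that blocks receptors of both branches and is induced by them. It was at 125, 119 and 121 CPM in wild type and at 101, 74.1 and 69.5 CPM in the knockout. All 3 knockout libraries were below wild type, but replicate 1 stood apart from the other two. The log2 fold change was -0.57 ± 0.14 (1.48-fold lower, adjusted p = 0.00434). Without knockout replicate 1 it was -0.75. The knockout SD was 17.2 CPM and the wild-type SD 3.17 CPM.

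The Id genes encode helix-loop-helix proteins without a DNA-binding region, which capture basic helix-loop-helix factors, and they are direct targets of BMP-activated SMADs. Id1 was at 97.6, 106 and 119 CPM in wild type and at 28.5, 31.2 and 40.2 CPM in the knockout. No knockout library came near the wild-type range, and the log2 fold change was -1.69 ± 0.14 (adjusted p = 2.86e-06). Id2 was at 22.3, 23.7 and 24.9 CPM in wild type and at 6.14, 9.17 and 10.5 CPM in the knockout. It fell by 1.47 ± 0.17 on the log2 scale (adjusted p = 3.40e-05), with knockout replicate 1 the lowest. Id3 was at 12.4, 13.5 and 14.7 CPM in wild type and at 10.9, 12.04 and 14.2 CPM in the knockout. These ranges overlapped, the log2 fold change was -0.14 (95% interval -0.42 to 0.15) and the adjusted p was 0.388. That interval reaches neither the change of Id1 nor that of Id2.

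The coding sequences of the Id genes are less alike than those of the Lefty pair: Id1 and Id3 match at 69.4% of aligned bases and Id1 and Id2 at 68.0%. In the longest coding transcripts, 0 of 1125 windows of 36 bases of Id1 occur in Id3. The promoters of Id2 and Id3 are shown because one gene fell and the other did not pass the test. RefSeq promoter windows (GRCm38.p6) were found for 5 of the 10 genes: Bmp4, Id2, Id3, Nodal and Tdgf1. The 250 bases upstream of each start were searched on both strands for GGCGCC, a GC-rich SMAD motif of BMP targets, for CAGAC, a SMAD motif, and for AATCCACA, a motif of the Nodal-pathway factor FOXH1. GGCGCC was present once in Id2, 231 bases before the start, and in 9.59% of 32851 promoter windows. CAGAC was found 2 times in Id3 and 1 time in Tdgf1, and in 42.2% of all windows. AATCCACA was in none of the 5 and in 0.718% of all windows. No window of the 5 held more than a single kind of motif, so no matches of different motifs overlapped; a match is a description of the letters and not a binding site. Capitals mark GGCGCC, which only the first of these sequences holds; CAGAC is not marked. They are the Id2 promoter at chr12:25096093-25096342 (minus strand) and the Id3 promoter at chr4:136143572-136143821 (plus strand), 5′ to 3′ toward the gene.
Id2: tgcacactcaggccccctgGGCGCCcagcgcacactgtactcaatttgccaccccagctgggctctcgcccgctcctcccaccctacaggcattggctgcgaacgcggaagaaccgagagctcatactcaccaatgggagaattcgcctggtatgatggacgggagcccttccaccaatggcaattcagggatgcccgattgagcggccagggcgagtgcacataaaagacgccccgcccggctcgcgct
Id3: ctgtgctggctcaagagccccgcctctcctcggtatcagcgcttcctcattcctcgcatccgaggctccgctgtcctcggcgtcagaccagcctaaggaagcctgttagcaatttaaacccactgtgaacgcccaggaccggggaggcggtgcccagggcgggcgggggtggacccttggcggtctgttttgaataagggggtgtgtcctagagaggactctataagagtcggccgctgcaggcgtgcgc

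Length-scaled levels allow the genes to be ordered within a group (CPM per kilobase of exon, with exon lengths from GENCODE M21). In wild type the order was Tdgf1 at 303 ± 17.8, Id1 at 92.7 ± 9.11, Lefty1 at 48.5 ± 1.67, Gdf3 at 46.9 ± 2.10 and Lefty2 at 43.0 ± 3.40 CPM per kilobase. Below them came Bmp4 at 31.7 ± 1.08, Smad7 at 26.8 ± 0.701, Nodal at 22.2 ± 1.55, Id2 at 9.70 ± 0.532 and Id3 at 7.57 ± 0.634. Among neighbours in this order, only Lefty1 and Gdf3, and Gdf3 and Lefty2, had overlapping libraries there, and Lefty1 and Lefty2 overlapped as well. In the knockout Tdgf1 at 560 ± 39.6 and Lefty1 at 48.1 ± 5.52 led. Id1 (28.7 ± 5.26) overlapped with Nodal (26.7 ± 1.32), and Lefty2 (23.5 ± 1.91), Gdf3 (19.7 ± 2.67) and Smad7 (18.1 ± 3.81) overlapped in turn. Id1 overlapped with Lefty2 as well (lowest Id1 24.5, highest Lefty2 25.1), and Lefty2 with Smad7 (lowest Lefty2 21.4, highest Smad7 22.4). Id3 (6.91 ± 0.943) overlapped with Bmp4 (6.12 ± 0.537), and Id2 was lowest at 3.53 ± 0.919. By their means Bmp4 thus went from rank 6 to rank 9 of the 10 genes, and Nodal from rank 8 to rank 4. The libraries do not separate Bmp4 from Id3, or Nodal from Id1, in the knockout.

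**Figure D3:**
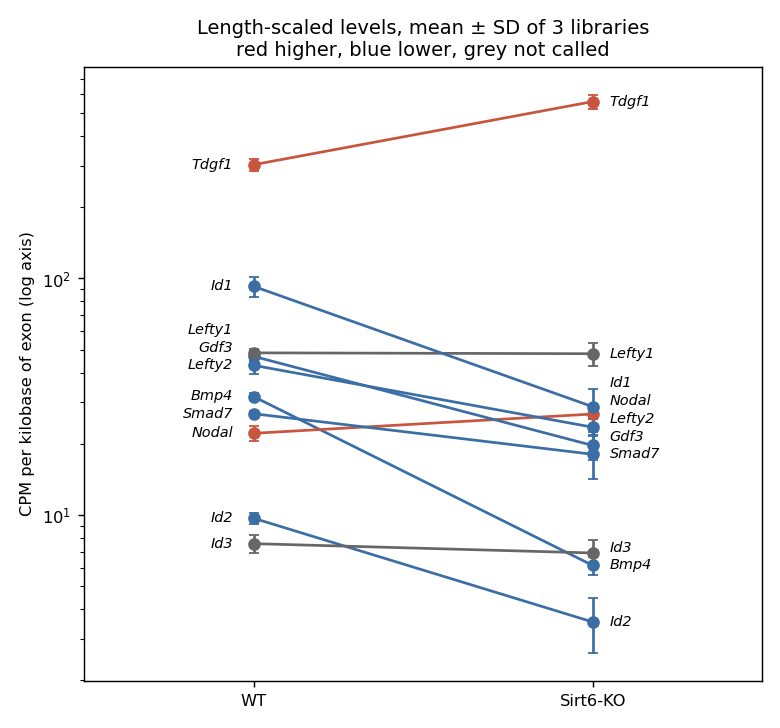
Mean ± SD of CPM per kilobase of exon (y axis, log scale) in wild type and knockout, 3 libraries each, a line per gene coloured by its call. Tdgf1 stays highest, from 303 to 560, while the mean of Bmp4 goes from 31.7 to 6.12 and crosses those of Nodal, Smad7 and Id3. In the knockout the libraries of Bmp4 and Id3 overlap.

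Ratios of counts within a library do not depend on how libraries are scaled. The pairs were chosen after the values were seen, so they are given with no test. The ratio of Id1 to Id3 was 7.84, 7.86 and 8.06 in wild type and 2.61, 2.60 and 2.82 in the knockout, with little spread in either group. The ratio of Id2 to Id3 was 1.75 ± 0.0505 and 0.688 ± 0.109 (SD, n = 3). The ratio of Lefty2 to Lefty1 counts was 1.28, 1.26 and 1.40 in wild type and 0.775, 0.747 and 0.665 in the knockout. Lefty2 has the longer exons, and per kilobase the mean of Lefty1 was above that of Lefty2 in both groups. In wild type their libraries overlapped, with the lowest Lefty1 at 46.6 and the highest Lefty2 at 46.8 CPM per kilobase. These ratios thus show the change between groups and not which gene is more abundant. Tdgf1 to Nodal went from 17.1 ± 0.892 to 26.2 ± 2.19, Gdf3 to Nodal from 2.45 ± 0.142 to 0.851 ± 0.0947, and Smad7 to Nodal from 2.62 ± 0.260 to 1.46 ± 0.310. Lefty1 to Nodal changed less, from 1.84 ± 0.0706 to 1.51 ± 0.0995. The groups did not overlap in any of these ratios, which is only a description because the pairs were chosen with their values known. For single genes, 63.2% of all those tested did not overlap, and the share for ratios of any 2 genes was not measured.

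**Figure D4:**
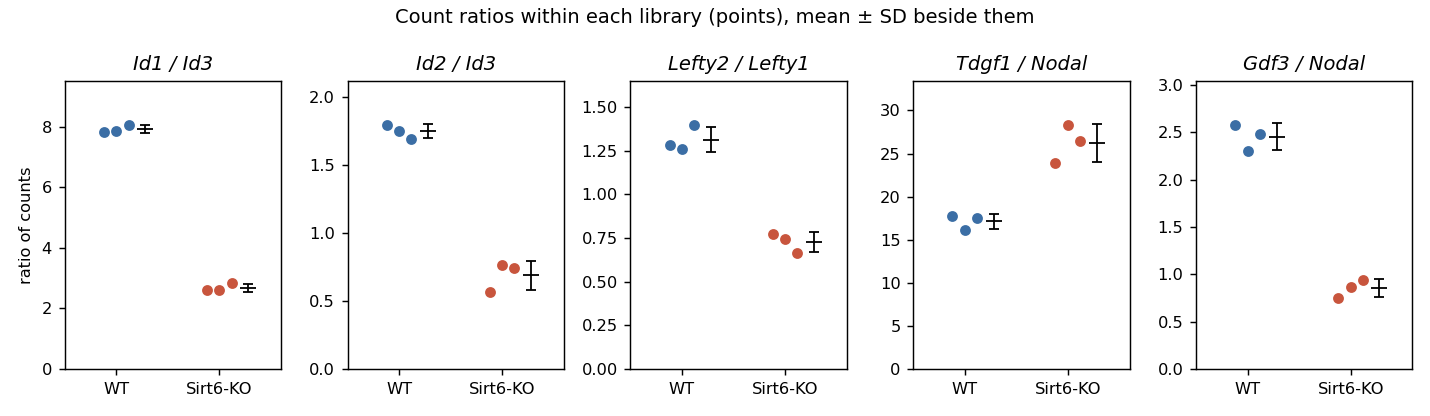
Ratio of read counts of 2 genes within each library (y axis, from 0), with mean ± SD beside the points, for 3 wild-type (blue) and 3 knockout (red) libraries. Id1 to Id3 falls from near 8 to below 3, Lefty2 to Lefty1 falls from 1.31 to 0.729 on average (counts, not scaled by length), and Tdgf1 to Nodal rises.

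Other genes of the pathway were counted from fixed lists, 99 genes in all, of which 71 were tested. Of these 15 rose and 25 fell, or 56.3% called, close to the 55.7% of all tested genes (27.9% higher and 27.8% lower). Those shares are to be set beside each list below. A gene that is near silent in 1 group is tested only if the other group lifts it past the filter, so the shares cover tested genes and not whole lists. Of 24 further ligands 10 were tested, 2 rose and 5 fell. Inhbb, the activin beta-B subunit, was at 196 ± 3.78 CPM in wild type and 38.9 ± 6.98 CPM in the knockout (5.03-fold lower). Tgfb1 fell from 4.84 ± 0.608 to 1.12 ± 0.0610 CPM, and the inhibin alpha gene Inha from 2.25 ± 0.126 to 0.344 ± 0.126 CPM. Bmp8a fell by 1.49 ± 0.25 (log2 ± SE) whereas its close paralog Bmp8b, named after its value was seen, rose by 1.01 ± 0.19; how many reads could fit both was not measured, and both values are uncertain. The count of higher ligands was 1 without wild-type replicate 1 or 3.

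Among 9 tested extracellular inhibitors 2 rose and 4 fell (66.7% called, beside 55.7% of all tested genes). The BMP antagonist genes Chrd, Fst (follistatin, which binds activins) and Bmper were at log2 fold changes of -1.16 ± 0.17, -1.78 ± 0.29 and -1.27 ± 0.32. Chrdl1 rose from 1, 3 and 4 counts in wild type to 36, 26 and 24 counts in the knockout. The count of higher inhibitors was 1 without any of wild-type replicates 1 and 3 or knockout replicates 1, 2 and 3 in turn. Of the 3 tested convertases that cleave these ligands, Pcsk6 fell by 0.99 ± 0.12, and Furin (-0.06) and Pcsk7 (-0.14) did not pass the test. Without knockout replicate 1, Pcsk7 was called as lower (-0.26). Pcsk5, named after its value was seen, was too low to pass the main filter. It was called as higher without wild-type replicate 1, 2 or 3 or knockout replicate 2. With a library left out, fewer libraries have to pass the filter, so that call adds little. Furin was at 0.07 with total counts as scaling.

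Of 15 tested receptors and co-receptors 4 rose and 6 fell (66.7% called, beside 55.7% of all tested genes). The type II receptor genes Tgfbr2 and Bmpr2 had log2 fold changes of -1.87 ± 0.17 and -1.06 ± 0.17. The pseudoreceptor gene Bambi, which dampens these signals, rose by 0.86 ± 0.11, and Bmpr1b rose from 3, 7 and 3 counts to 47, 30 and 17. The count of lower receptors was 3 with total counts as scaling or without knockout replicate 2. Of 18 SMADs and nuclear partners 1 rose, 5 fell and 12 did not pass (33.3% called). Zfp423, a zinc finger partner of BMP SMADs, fell by 2.94 ± 0.12 (7.66-fold), the inhibitory SMAD gene Smad6 by 1.59 ± 0.16, the Nodal partner gene Foxh1 by 0.71 ± 0.11 and Smad2 by 0.51 ± 0.10. The count of higher genes was 2 without knockout replicate 3 and with total counts.

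Further targets moved in both directions. Of 8 tested BMP targets outside the Id genes described above, 4 rose and 2 fell (75% called, beside 55.7% of all tested genes). Hey1 rose from 1.14 ± 0.240 to 4.62 ± 0.291 CPM and Bambi as given above, while Gata2 (-2.11 ± 0.22) and Smad6 fell. Of 9 tested targets of Nodal and activin, 3 rose and 1 fell (44.4% called). The thyrotropin-releasing hormone gene Trh rose from 160 ± 18.8 to 369 ± 46.9 CPM. Pmepa1, which encodes an inhibitor of receptor SMADs, fell from 23.8 ± 1.87 to 8.11 ± 0.734 CPM. The count of lower genes was 2 without knockout replicate 1 and 3 without knockout replicate 3. Of the 3 E-protein genes whose products Id proteins bind, Tcf4 and Tcf12 fell by 0.88 ± 0.10 and 0.59 ± 0.11, and Tcf3 was at 0.04 (-0.12 without knockout replicate 1).

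**Figure D5:**
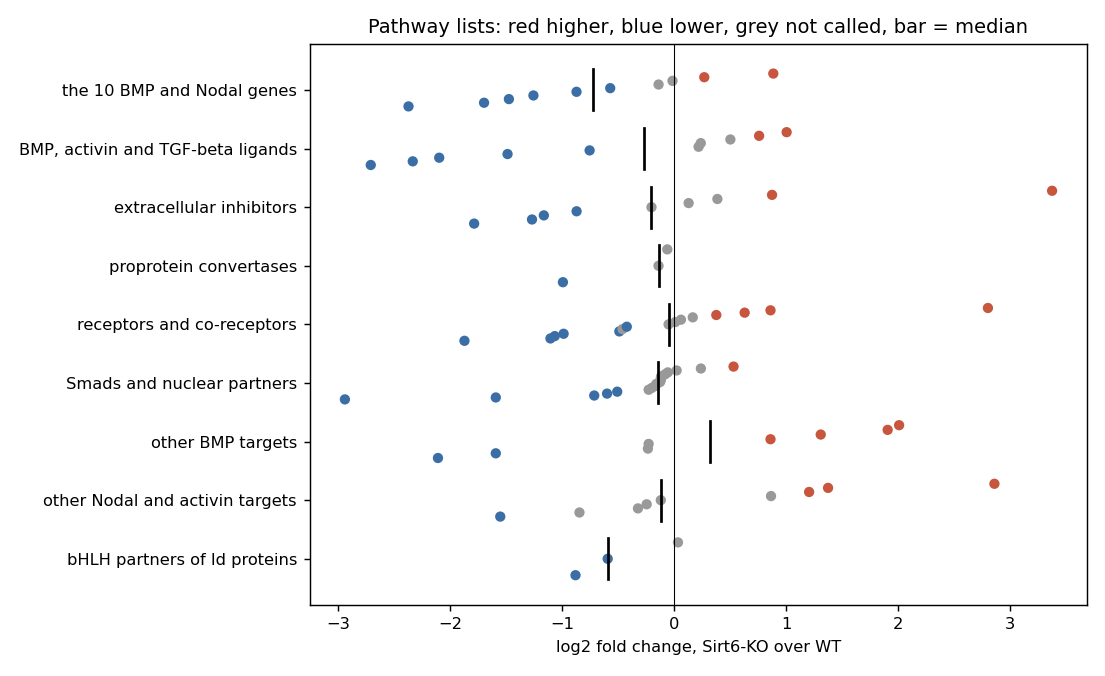
Log2 fold change in the knockout over wild type (x axis) of each tested gene in the BMP and Nodal set and 8 fixed pathway lists (rows); red is called higher, blue lower and grey not called, and bars mark medians. The 10 BMP and Nodal genes have a median of -0.72, and the lists have medians from -0.59 (E-protein partners) to 0.32 (other BMP targets).

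Markers of other cell types moved as well. Among all tested genes 27.8% were lower and 27.9% higher, the shares to set beside each list below. All 8 primitive endoderm markers were lower in the knockout. Their summed level was 245 to 277 CPM in wild type and 32.2 to 51.7 CPM in the knockout. Most of these sums was Lama1, at 214 and 35.3 CPM on average. No marker of this list was at 0 in all libraries of a group. Of 8 trophectoderm markers 4 were tested and 3 were higher (sums of 46.9 to 49.0 and 103 to 111 CPM). The higher ones were Krt8 (21.2 to 39.5 CPM on average), Krt18 (5.43 to 26.5 CPM) and Tfap2c (18.3 to 39.7 CPM), which make up most of these sums. Cdx2, Elf5, Gata3 and Hand1 were under 1 CPM in every library of both groups and were not tested. Of 8 neuroectoderm markers 4 were tested, 2 were higher and 2 lower (sums of 89.8 to 94.5 and 141 to 157 CPM). Most of these sums was Tubb3, which rose from 59.3 to 126 CPM on average, and Nes rose from 9.73 to 18.7 CPM. Sox1 fell from 16.2 to 4.36 CPM and Pax6 from 6.55 to 0.914 CPM, against the direction of the sum. Of 8 mesoderm markers 5 were tested and 1 was higher (sums of 4.25 to 6.26 and 4.59 to 5.92 CPM). Of 13 fibroblast markers 8 were tested, 7 were higher and 1 lower (sums of 178 to 200 and 140 to 166 CPM). Lum was at 0 counts in both groups and Postn at 0 in wild type. Most of these sums was Vim, at 184 and 114 CPM on average, the marker that was lower. Against the direction of the sum, Col1a1, Col1a2, Col6a1, Col6a2, Tagln, Acta2 and Thy1 were higher, Tagln from 2.21 to 21.7 CPM on average. Col1a2, Col6a1, Col6a2 and Acta2 had single-digit counts in wild type and passed the filter through the knockout. The part of these cell types in the changes of Bmp4, Id1, Id2 and the other genes was not tested.

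The genes with library profiles nearest to those of Bmp4, Id1 and Id2 were found among 10455 genes of at least 5 CPM, by the root mean square distance of centred log2 CPM over the 6 libraries. For Bmp4 they were Nfib, Soga3 and Diap3 (distances of 0.05 to 0.06, log2), for Id1 Ak7, Cth and Lgals3 (0.07 to 0.10), and for Id2 Cox8a, Sult6b1 and Cltb (0.04 to 0.10). In each case 32 to 54 genes lay within a distance of 0.2, as a description of these 6 libraries. The log2 fold changes of Nfib, Soga3 and Diap3 were -2.39, -2.32 and -2.28, beside -2.37 for Bmp4. A small distance can thus reflect a like change between the groups alone, and shared regulation was not tested. In the authors' deposited table, the same 2 genes are higher and the same 6 lower at an adjusted p under 0.05. For these 10 genes, the log2 fold changes of the authors' deposited table, such as -2.34 for Bmp4, differ from those given here by at most 0.05.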

How the data were processed

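Deposited values were whole-number counts per gene symbol in 23366 rows, not normalized. Per the submitters' processing notes, HTSeq 0.6.1, TopHat2 2.0.10 and DESeq2 were used, with build mm9; neither strand nor annotation is stated there. The authors' deposited comparison table, per the file headers, holds a mean signal, log2 fold changes with standard errors, a score (the test statistic), and p-values.

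Columns were matched to samples by name. Counts were tested with edgeR 4.0.16 in R 4.3.3 (quasi-likelihood F test, TMM scaling, filterByExpr), which left 14988 genes; p-values were adjusted over all of them by the Benjamini-Hochberg method, threshold 0.05. Standard errors are the fold change divided by the square root of F. The test was also run on simulated counts in which few genes changed. That setting is unlike these data, where 55.7% of tested genes were called, so the run does not cover them. Named were the 10 genes, Sirt6, up to 4 genes per pathway list with the smallest adjusted p, and the 3 genes nearest in profile to each of the 3 most changed; others are said to be named after their values. Some genes under this rule are not reported here. The members and lists were chosen with earlier results of these data known. Exon lengths and coding sequences came from GENCODE M21 (GRCm38, not the authors' build; 98.9% of tested genes had a length), aligned with Biopython 1.88. Alternatives were other scalings, filters and tools (DESeq2 1.42.0, limma-voom 3.58.1), the replicate block, removal of length and GC trends, library sizes without 3 abundant noncoding RNAs, stricter thresholds, and each library left out. Closest libraries differed by more than counting noise (lowest chi-square over its degrees of freedom 3.73).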

Additional observations from a re-analysis of the deposited data

How the results depend on the processing

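Bmp4, Id1, Id2, Gdf3, Lefty2, Smad7 and Tdgf1 kept their direction and call in the 15 alternatives of scaling, filter, tool, model and libraries, with log2 ranges of -2.42 to -2.24, -1.87 to -1.58, -1.66 to -1.26, -1.39 to -1.14, -0.92 to -0.75, -0.75 to -0.44 and 0.73 to 1.01. Id3 was not called in any (-0.27 to -0.02). The 2 higher members became 1 with no filter on low counts, 1 at an adjusted p under 0.01 and 0 with a log2 fold change of at least 1 required; leaving out single libraries gave 1 to 2. The member lost was Nodal, except under the fold requirement, where Tdgf1 was lost too and the 6 lower members became 4, without Lefty2 and Smad7. Requiring that fold also left 9 and 14 of the other pathway genes (15 higher and 25 lower) and 1889 and 1349 of all genes (4182 and 4163). Lefty1 changed sign, uncalled, with total counts (0.11), a mean of at least 1 CPM as filter (0.0130), library sizes without Rn45s, Rmrp and Rpph1 (0.0011), without wild-type replicate 3 (0.00080) and without knockout replicate 2 (0.0695). Furin did so with total counts (0.0718), after removal of length and GC trends (0.11) and without knockout replicate 3 (0.0465; -0.24 to 0.0465 over single libraries left out), and Tcf3 without knockout replicate 1 (-0.12). The cause of these shifts was not tested. Total counts moved the median of all genes by 0.12 (log2) against TMM. Of 567 values of other named genes, 562 kept direction and call.

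With the replicate block, 2 members were higher and 6 lower, as without it, and 4670 and 4682 of all genes were called higher and lower. Deviations of same-numbered libraries correlated at 0.21, -0.03 and 0.20, and those of differently numbered libraries at -0.22 to 0.03. Wild-type replicates 1 and 3 correlated best with their own number, and replicate 2 with another. Whether same-numbered libraries share a batch or an order of handling was not tested. Depth did not limit the members, with at least 195 counts per library, but Chrdl1 and Bmpr1b rest on single-digit counts in wild type. Counts were also low for Bmper, at 24, 22 and 22 in wild type and 12, 12 and 4 in the knockout. Inha was at 12, 5 and 9 counts in the knockout.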
